A study of Homo sapiens with 4 samples.

Results

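The TEAD transcription factors and the core of the Hippo pathway were followed in RNA of RKO cells, a human line established from a colon carcinoma, with and without overexpression of HADH-S. The genes were TEAD1, TEAD2, TEAD3 and TEAD4, the coactivator genes YAP1 and WWTR1 (WWTR1 encodes the protein TAZ), and the kinase genes LATS1 and LATS2, each found by its symbol in the authors' tables. Of these 8 genes, 7 were listed, out of 13092 genes listed in all, and TEAD3 was not evaluated here. The study asked which genes respond to HADH-S, a nuclear isoform of the beta-oxidation enzyme hydroxyacyl-CoA dehydrogenase, in colorectal cancer cells. RNA came from 1 library of RKO cells of genotype HADH-S overexpression and 1 control library of RKO cells of genotype WT. How HADH-S was delivered, and whether the control cells carried a vector, is not given in the sources used here. With 1 library per condition there is no test between conditions, and no difference below has a replicate check.

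In the Hippo pathway, the kinases STK3 and STK4 with the scaffold SAV1 activate LATS1 and LATS2, whose partners are the MOB1 proteins. LATS kinases phosphorylate YAP and TAZ, which are then held in the cytoplasm by 14-3-3 proteins or degraded. YAP and TAZ that escape phosphorylation enter the nucleus and, having no DNA-binding domain of their own, act through TEAD factors at sites that read GGAATG. In the intestine the pathway is known for its part in regeneration after injury and in tumour growth.

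The HADH-S library held 6963608 reads over 12612 genes and the control library 6773421 reads over 12501 genes, recovered as whole reads from RPKM (reads per kilobase of transcript, scaled to library size). HADH measured 54.4 RPKM in HADH-S cells and 26.5 RPKM in control cells, a ratio of 2.05 with a 95% counting interval of 1.79 to 2.35, which is the direction of the label. Of 9 epithelial and colon markers 4 were listed, and their summed level was 111 RPKM in HADH-S cells and 106 RPKM in control cells, most of it the keratin gene KRT18. EPCAM (9.57 and 8.20 RPKM), CDX2 (4.37 and 3.60 RPKM) and KRT8 (2.81 and 2.54 RPKM) were detected in the HADH-S and control libraries, and CDH1, CDX1, VIL1, CDH17 and KRT20 were not evaluated. Of the markers of other cell types, 2 of 7 for fibroblasts, 1 of 6 for endothelium and 1 of 6 for leukocytes were listed. Those listed summed to at most 0.523 RPKM per list in either library, and 0 of them reached a mean of 1 RPKM. The unlisted markers of these cell types were not evaluated.

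TEAD1 and WWTR1 were lower with HADH-S, and the counting intervals of the other 5 listed genes included a ratio of 1. TEAD1, the founding member of the TEAD family, was at 12.2 RPKM in the HADH-S library and 18.9 RPKM in control cells, backed by 261 and 394 reads. The TEAD1 ratio was 0.644, with an exact 95% counting interval of 0.549 to 0.755. In bulk RNA, a lower level per cell and fewer cells with the transcript cannot be told apart. WWTR1 was at 12.3 RPKM in HADH-S cells and 15.4 RPKM in control cells (432 and 525 reads), a ratio of 0.800 with an interval of 0.703 to 0.911. These intervals hold counting error only, and over all genes the log ratios had an SD 1.91 times that predicted by counting error.

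Neither difference reached 2-fold. On a log2 scale of HADH-S over control, taken after adding 1 to each RPKM, which understates the change of low genes, TEAD1 stood at -0.59 and WWTR1 at -0.30. Of the 7 genes, 0 were 2-fold higher and 0 were 2-fold lower, while over the 10331 genes whose mean RPKM reached 1 the share 2-fold higher was 0.300% and the share 2-fold lower was 0.0484%. TEAD1 was the 1 member lower by at least 1.5-fold, and 0 members were higher by that factor, where the shares over all genes were 0.436% lower and 1.47% higher. With a pseudocount of 5 in place of 1, TEAD1 stood at -0.48 and did not pass 1.5-fold. Of the 7 counting intervals, 2 lay wholly below a ratio of 1 and 0 wholly above, against 11.6% below and 13.8% above over all genes. Among the 7573 genes with at least the 265 reads of the least covered member, those shares were 14.2% below and 15.0% above, and 2 of 7 members is 28.6%, a coarse share from so few genes. Log2 values were above 0 for 3 members and below 0 for 4, where 52.2% of all genes were above and 47.8% below, and the members' median was -0.01, against 0.01 over all genes.

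**Figure D1:**
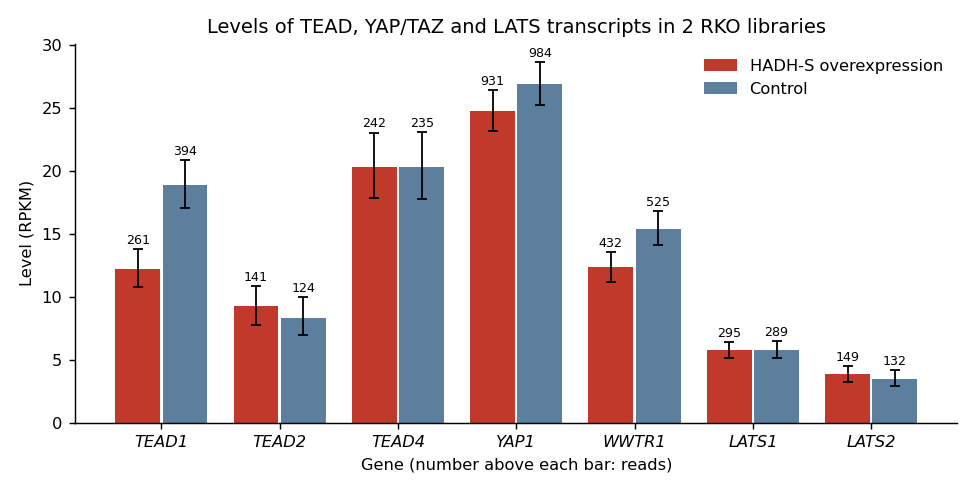
Levels in RPKM of the 7 listed genes in the HADH-S overexpression library (red) and the control library (blue), 1 library each, with exact Poisson 95% intervals for counting error and the number of reads above each bar. The intervals of the 2 libraries do not meet for TEAD1 (12.2 in HADH-S cells, 18.9 in control cells) and WWTR1 (12.3 and 15.4), and they meet for the other 5 genes.

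The TEAD1 ratio was among the lowest of genes with as many reads or more. Of the 4661 genes with at least as many reads as TEAD1 and a mean RPKM from 1 upward, 3 had a ratio at or below that of TEAD1, itself included, which is 0.0644%. The other two were the actin-binding protein gene CALD1 (ratio 0.593) and the sterol carrier gene STARD4 (ratio 0.603), named after their values were seen. For WWTR1 the same count was 42 of 3343 genes, or 1.26%. YAP1 had 275 of 1447 genes at or below its ratio, 19.0%, and for LATS1 and TEAD4 the shares were 49.2% and 51.9%, in the middle of the table. The members were chosen with earlier results of these data known. These shares therefore give rank only and do not measure how rare such a ratio is.

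**Figure D2:**
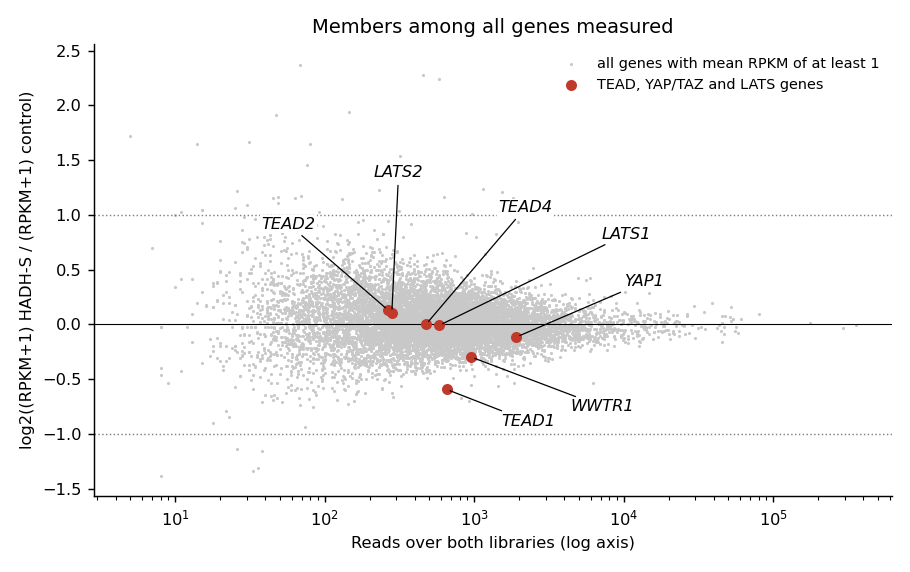
The log2 value of HADH-S over control (y axis) against the reads of a gene in both libraries (x axis, log scale) for 10331 genes whose mean RPKM reached 1 (grey) and the 7 listed members (red), with dotted lines at 1 and -1. TEAD1 lies at the lower edge of genes with similar coverage at -0.59, WWTR1 at -0.30, and the other 5 lie inside the cloud.

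The other TEAD genes did not share the TEAD1 difference. TEAD4 was at 20.3 RPKM in both the HADH-S and the control library (242 and 235 reads), a ratio of 1.00 with an interval of 0.834 to 1.20. TEAD2 was at 9.24 RPKM in HADH-S cells and 8.36 RPKM in control cells (141 and 124 reads), a ratio of 1.11 with an interval of 0.863 to 1.42. With counting error alone, the reads are compatible with ratios from 0.863 to 1.42 for TEAD2 and from 0.834 to 1.20 for TEAD4. A comparison inside each library does not depend on how the libraries are scaled. TEAD1 stood at 0.600 times the RPKM of TEAD4 with HADH-S and 0.932 times in the control, so the quotient of these values was 0.643, with an exact conditional interval of 0.503 to 0.822. Against TEAD2, the quotient for TEAD1 was 0.583 (0.432 to 0.785), while TEAD2 against TEAD4 gave 1.10 (0.808 to 1.51). The TEAD1 quotients against both relatives lay below 1 by more than counting error, and the interval between the relatives included 1.

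The makeup of the TEAD pool, taken without TEAD3, which was not evaluated, was correspondingly different. TEAD1 held 29.2% of the summed RPKM of TEAD1, TEAD2 and TEAD4 with HADH-S and 39.8% in the control. TEAD4 held 48.7% in HADH-S cells and 42.7% in control cells, and TEAD2 held 22.1% in HADH-S cells and 17.6% in control cells. The summed level of the 3 genes was 41.8 RPKM in HADH-S cells and 47.6 RPKM in control cells, a ratio of 0.878. Counted as reads, TEAD1 took 40.5% of TEAD reads with HADH-S (exact binomial interval 36.7% to 44.4%) and 52.3% in the control (48.7% to 55.9%), and these intervals do not meet.

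**Figure D3:**
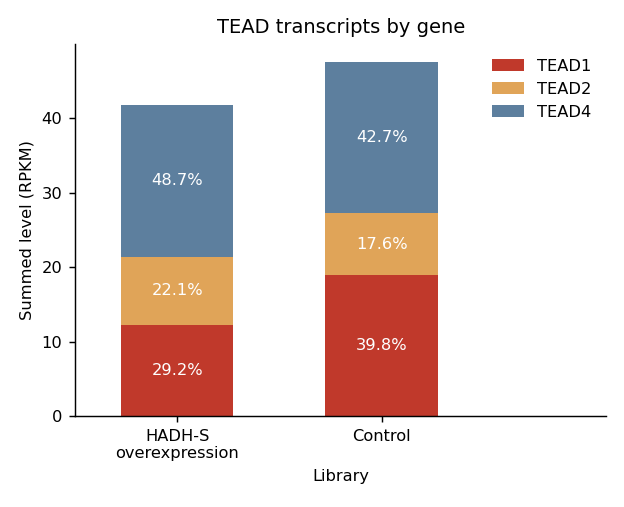
Summed RPKM of TEAD1 (red), TEAD2 (yellow) and TEAD4 (blue) in the HADH-S library (left) and the control library (right), with each gene's share of the sum printed in its segment. The TEAD1 segment is 29.2% with HADH-S and 39.8% in the control, while the TEAD4 segment has almost the same height in both.

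YAP1, the most abundant of the 7 genes in both libraries, was at 24.8 RPKM in HADH-S cells and 26.9 RPKM in control cells (931 and 984 reads). Its ratio was 0.920 with an interval of 0.841 to 1.01, which includes 1. WWTR1, the paralog of YAP1, had the lower ratio of the pair, but the quotient of WWTR1 against YAP1, 0.870, had an interval of 0.742 to 1.02, so the 2 coactivators were not separated beyond counting error. Together YAP1 and WWTR1 were at 37.1 RPKM in HADH-S cells and 42.3 RPKM in control cells, a ratio of 0.877. The read sum of the pair, 1363 with HADH-S and 1509 in the control, gave a depth-scaled ratio of 0.879 with an interval of 0.816 to 0.946. WWTR1 made up 33.2% of the summed RPKM in HADH-S cells and 36.4% in the control. TEAD1 was lower than either coactivator in relative terms, with a quotient of 0.700 (0.582 to 0.842) against YAP1 and 0.805 (0.654 to 0.990) against WWTR1. The interval against WWTR1 ended close to 1. Both intervals hold counting error only, and log ratios over genes varied more than counting error predicts.

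The inhibitory kinases LATS1 and LATS2 were the least abundant of the 7 genes, and the counting intervals of both included a ratio of 1. LATS1 was at 5.75 RPKM in HADH-S cells and 5.80 RPKM in control cells (295 and 289 reads), a ratio of 0.993 with an interval of 0.841 to 1.17. LATS2, which is also a target gene of YAP and TAZ, was at 3.86 RPKM in HADH-S cells and 3.51 RPKM in control cells (149 and 132 reads), a ratio of 1.10 with an interval of 0.863 to 1.40. Their sum was 9.61 RPKM in HADH-S cells and 9.31 RPKM in control cells, and the depth-scaled ratio of the summed reads was 1.03 (0.896 to 1.17).

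**Figure D4:**
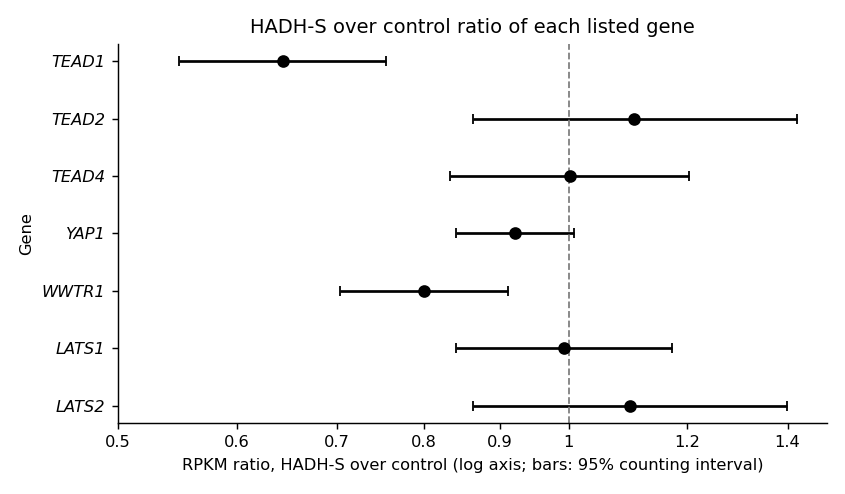
Ratio of RPKM in the HADH-S library to RPKM in control cells library (x axis, log scale) for each listed gene (y axis), with the exact 95% counting interval, and a dashed line at a ratio of 1. TEAD1 (0.644) and WWTR1 (0.800) lie left of the line with intervals that do not reach it, and the other 5 intervals cross it.

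The order of levels per transcript length changed at 1 place. With HADH-S it ran YAP1, TEAD4, WWTR1, TEAD1, TEAD2, LATS1 and LATS2, and in the control it ran YAP1, TEAD4, TEAD1, WWTR1, TEAD2, LATS1 and LATS2. In the HADH-S library the intervals of WWTR1 (11.2 to 13.6 RPKM) and TEAD1 (10.8 to 13.8 RPKM) overlapped, as did those of TEAD1 and TEAD2 (7.78 to 10.9 RPKM). In the control library only the neighbours TEAD4 (17.8 to 23.1 RPKM) and TEAD1 (17.1 to 20.9 RPKM) overlapped, so TEAD1 and TEAD4 were level there and apart with HADH-S, where TEAD4 reached from 17.8 to 23.1 RPKM. All other neighbours in the order were separated beyond counting error.

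The authors' rows give 1 transcript per gene, so isoforms are not separated. TEAD1 (ENSG00000187079) spans chr11:12674421-12944737 in GRCh38.p14, and its row refers to a transcript of 3075 nt, ENST00000334310. WWTR1 (ENSG00000018408) spans chr3:149517235-149724788, with a transcript of 5030 nt, and YAP1 (ENSG00000137693) spans chr11:102110447-102233424, with one of 5398 nt. TEAD4 lies at chr12:2959397-3040676, TEAD2 at chr19:49340595-49362416, LATS1 at chr6:149658153-149718101 and LATS2 at chr13:20973036-21061586. TEAD2 overlaps the coding genes CD37 and DKKL1, which are also listed, and TEAD1 and WWTR1 each overlap an antisense RNA gene (TEAD1-AS1 and WWTR1-AS1). Noncoding genes that are not listed also overlap TEAD4, YAP1 and LATS1. These overlaps are of whole gene spans, introns included, and overlap of exons was not examined. Since the strand setting of the counting is also not given, whether reads of overlapping genes were counted to the members cannot be told.

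Genes whose log2 value was nearest to that of a member were sought among genes with at least as many reads, over the 2 libraries. With only 2 libraries this likeness is a similar difference and no more. Nearest to TEAD1 (-0.59) were the sterol-regulatory gene INSIG1 (-0.59, 13.8 RPKM in HADH-S cells and 21.4 RPKM in control cells), the phosphatidate phosphatase gene LPIN1 (-0.56) and the mevalonate pathway gene HMGCS1 (-0.55). Nearest to WWTR1 (-0.30) were BIRC6, CEP350 and TRUB1, all at -0.30. Nearest to LATS2 (0.11) were FAR2, DCXR and SLC35D1, all at 0.11.

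The wider Hippo pathway was described by 6 lists holding 75 genes, of which 63 reached a mean RPKM of 1. Over these 63 genes 0 were 2-fold higher or lower and 0 passed 1.5-fold, where 1.47% of all genes were higher and 0.436% lower by that factor. Of their counting intervals, 12 of 63 (19.0%) lay under a ratio of 1 and 4 (6.35%) over it. Over all genes those shares were 11.6% and 13.8%, and among the 7573 genes with at least 265 reads they were 14.2% and 15.0%. The 63 genes were not matched for reads. Their median length was 4354 nt, against 3148 nt over all genes, and across genes the log2 value fell with length. The median log2 value of the 63 genes was -0.02, against 0.01 over all genes.

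Upstream kinases and scaffolds held 7 of these 12 lower genes. Of 18 measured genes, 7 (38.9%) had intervals under a ratio of 1 and 1 (5.56%) had an interval over it. The shares over all genes, not matched for reads, were 11.6% and 13.8%. Of the list, 13 genes had a negative log2 value, and the median of the list was -0.10. The kinases MAP4K3 and MAP4K5, which can activate LATS beside STK3 and STK4, were at 8.35 and 18.0 RPKM in HADH-S cells and at 10.8 and 23.0 RPKM in control cells. Their ratios were 0.771 (0.651 to 0.912) and 0.784 (0.699 to 0.878). MOB1B, a LATS cofactor, had the largest difference of the list, at 3.63 RPKM in HADH-S cells and 4.93 RPKM in control cells, but from 28 and 37 reads, with an interval of 0.434 to 1.24. The other genes with an interval below 1 were FRMD6, MOB1A, STK4, TAOK1 and WWC2, and the gene with one above 1 was the kinase TAOK2 (ratio 1.17, interval 1.02 to 1.34). STK4, the best covered kinase of the core cascade, was at 53.6 RPKM in HADH-S cells and 59.7 RPKM in control cells (ratio 0.898, interval 0.848 to 0.949), and STK3 had a ratio of 0.842 with an interval of 0.689 to 1.03. Transcript length moved with these values. The list had a median length of 4917 nt, against 3148 nt over all genes, and across genes the log2 value fell with the log10 of length (Pearson's r = -0.17, a description in which all points share the same 2 libraries). With that trend removed, the list's median was -0.06, TEAD1 stood at -0.60 and WWTR1 at -0.27.

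Among 10 measured junction and polarity regulators, 2 had an interval below 1 and 1 above, counts too small to set against the 11.6% and 13.8% of all genes. The median of -0.10 was -0.04 with the length trend removed. The polarity gene SCRIB was at 35.2 RPKM in HADH-S cells and 27.8 RPKM in control cells, a ratio of 1.27 (1.16 to 1.38). PALS1, listed by the authors under an older symbol, was at 15.1 RPKM in HADH-S cells and 17.6 RPKM in control cells (0.855, interval 0.763 to 0.958), and its binding partner PATJ had a ratio of 0.831 (0.630 to 1.10). In the STRIPAK phosphatase complex, which opposes the STK3 and STK4 kinases, 1 of 16 genes had an interval below 1 and 1 above, with a median of -0.04. The striatin gene STRN had a ratio of 0.841 (0.744 to 0.950) and the catalytic subunit PPP2CB one of 0.907 (0.816 to 1.01).

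The 14-3-3 proteins, casein kinases and ubiquitin ligase parts that act on phosphorylated YAP and TAZ had a median of 0.02 over 13 genes. SFN, which encodes 14-3-3 sigma, was the 1 gene with an interval above 1, at 57.1 RPKM in HADH-S cells and 46.1 RPKM in control cells (ratio 1.24, interval 1.09 to 1.41). YWHAZ, which encodes 14-3-3 zeta and was chosen after its values were seen, was the 1 gene with an interval below 1 (ratio 0.940, interval 0.915 to 0.965). SFN and YWHAZ are each 1 of 13 genes (7.69%), where 13.8% of all genes had an interval above 1 and 11.6% below. The casein kinases CSNK1D and CSNK1E had ratios of 1.14 (0.962 to 1.34) and 1.10 (0.953 to 1.28). Of the TEAD cofactors, the coactivator NCOA2 was at 10.1 RPKM in HADH-S cells and 11.8 RPKM in control cells (ratio 0.854, interval 0.763 to 0.955), while NCOA1 (0.857, interval 0.723 to 1.02) and NCOA3 (1.08, interval 0.949 to 1.23) had intervals that include 1. The LATS-related kinases STK38L and STK38 had ratios of 0.899 (0.794 to 1.02) and 1.08 (0.928 to 1.26).

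**Figure D5:**
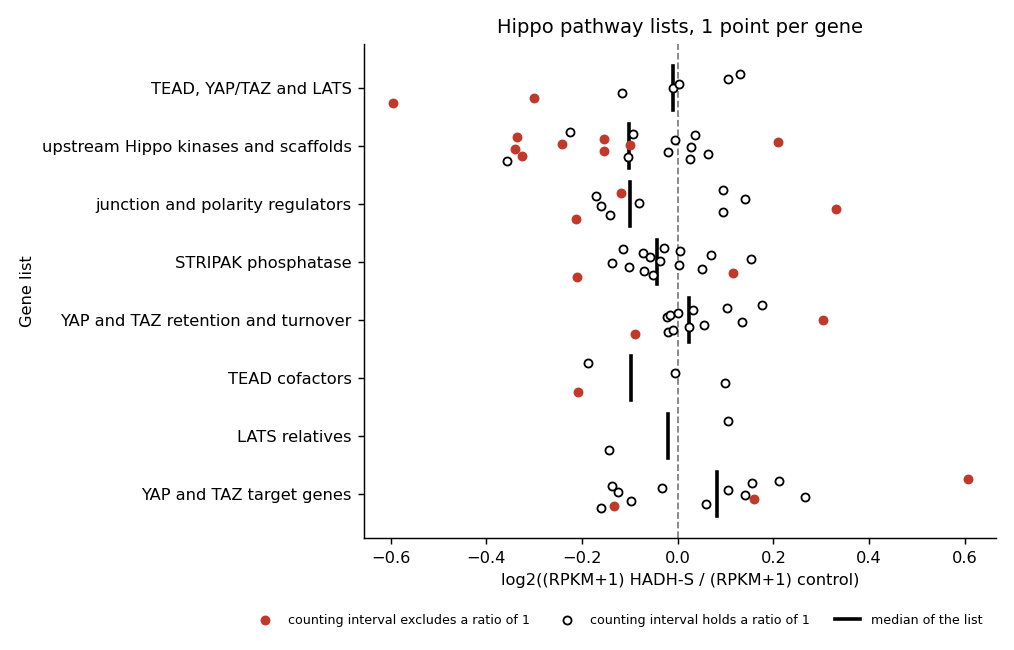
The log2 value of HADH-S over control (x axis) for each gene whose mean RPKM reached 1 in the members and in 7 lists of the pathway and its targets (y axis), 1 point per gene, red where the 95% counting interval of the ratio excludes 1 and open where it includes 1, with a black bar at the median of each list. TEAD1 at -0.59 lies below every gene of the pathway lists, and medians lie between -0.10 and 0.08.

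Genes in common use as targets of YAP and TAZ were then examined beside their factors. Of 22 target genes, 14 reached a mean RPKM of 1, with 8 log2 values above 0 and 6 below, and a median of 0.08, which was -0.10 where a mean RPKM of 5 was required. Of the 14 counting intervals 2 (14.3%) lay above 1 and 1 (7.14%) below, against 13.8% and 11.6% of all genes. The tissue factor gene F3 was at 1.5 RPKM in HADH-S cells and 0.642 RPKM in control cells, a ratio of 2.33 with an interval of 1.08 to 5.47 from 24 and 10 reads. On the log2(RPKM + 1) scale F3 was the 1 target of 14 past 1.5-fold, at 0.61. Over all genes 1.47% were higher and 0.436% lower by that factor. The mean of F3, 1.07 RPKM, lay just above the filter. ASAP1, a regulator of ARF GTPases, had a ratio of 1.12 (1.01 to 1.25). AXL, a receptor tyrosine kinase and the most abundant target gene, was at 87.3 RPKM in HADH-S cells and 95.9 RPKM in control cells (ratio 0.910, interval 0.865 to 0.958). NT5E, an ecto-nucleotidase, had a ratio of 1.23 (0.845 to 1.80) and PTPN14, a phosphatase that binds YAP, one of 0.868 (0.744 to 1.01). The pair of CCN genes that serve as standard readouts of YAP and TAZ had intervals that include 1. CCN2 was at 2.03 RPKM in HADH-S cells and 1.52 RPKM in control cells, from 33 and 24 reads (ratio 1.34, interval 0.767 to 2.36). CCN1 was at 21.4 RPKM in HADH-S cells and 23.0 RPKM in control cells, from 340 and 355 reads (ratio 0.932, interval 0.800 to 1.08). With counting error alone, the reads of CCN2 are compatible with any ratio from 0.767 to 2.36.

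The TEAD motif GGAATG, with its reverse complement CATTCC, was searched on both strands in RefSeq promoters of GRCh38.p14, each running from 250 bases before to 50 bases after a start site. Of all 35116 promoters, 14.0% held at least 1 match and 0.128% held at least 3. Promoters were found for 6 of the 8 members, of which YAP1 and LATS2 held a match (2 of 9 promoters). No promoter was found for TEAD1 or TEAD4, so the motif was not searched there. Of the 22 target genes, 16 had a promoter, and 9 of these genes held a match (9 of 18 promoters). The 250 bases before the start sites of CCN2 and ANKRD1, both long used as TEAD reporter promoters, and of YAP1, the member with a match upstream, are shown with matches in capitals.
CCN2: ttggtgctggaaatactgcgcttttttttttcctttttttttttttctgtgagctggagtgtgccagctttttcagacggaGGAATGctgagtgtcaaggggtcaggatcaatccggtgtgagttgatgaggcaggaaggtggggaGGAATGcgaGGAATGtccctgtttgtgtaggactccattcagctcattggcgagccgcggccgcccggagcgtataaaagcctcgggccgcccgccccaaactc
ANKRD1: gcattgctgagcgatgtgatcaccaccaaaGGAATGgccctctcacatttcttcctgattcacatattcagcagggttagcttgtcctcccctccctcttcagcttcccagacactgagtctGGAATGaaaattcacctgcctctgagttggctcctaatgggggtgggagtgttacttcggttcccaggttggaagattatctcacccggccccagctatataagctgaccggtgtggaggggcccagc
YAP1: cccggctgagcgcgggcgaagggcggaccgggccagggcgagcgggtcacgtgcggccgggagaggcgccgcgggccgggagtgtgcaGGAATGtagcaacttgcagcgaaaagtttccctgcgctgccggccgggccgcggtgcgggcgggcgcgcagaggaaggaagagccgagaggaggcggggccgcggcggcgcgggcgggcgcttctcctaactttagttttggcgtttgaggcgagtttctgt
These lie at chr6:131951373-131951622 on the minus strand, chr10:90921088-90921337 on the minus strand and chr11:102110197-102110446 on the plus strand. CCN2 held 3 matches, whose first bases lie at -169, -104 and -95 from the start site (counted as -1 for the base before it and 1 for the first transcribed base), ANKRD1 held 2, at -220 and -128, and YAP1 held 1, at -162.

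LATS2, a member and a target gene at once, held its match just after the start site, with its first base at position 10, AMOTL2 held one at -69 and PTPN14 one at -200. These genes are target genes that also restrain YAP, so a stretch of 30 bases around each match is shown, with the match in capitals.
LATS2: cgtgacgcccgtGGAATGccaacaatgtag
AMOTL2: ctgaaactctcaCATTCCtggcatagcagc
PTPN14: cctcccgggccgCATTCCtccccgcccccg
They lie at chr13:21061560-21061589, chr3:134374499-134374528 and chr1:214551785-214551814, all on the minus strand. AMOTL2, an angiomotin relative that holds YAP at junctions, was at 3.84 RPKM in HADH-S cells and 3.40 RPKM in control cells (ratio 1.13, interval 0.864 to 1.49), and the LATS2 ratio was 1.10. ANKRD1 was below the filter, with 6 reads in HADH-S cells, 2 in control cells and an interval of 0.522 to 29.6. Among measured target genes with a promoter, the 5 with a match had a median log2 value of 0.11 (range -0.16 to 0.27) and the 4 without had one of 0.14 (range -0.13 to 0.61). A match in these windows describes letters only.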

How the data were processed

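RNA was measured in 2 libraries of RKO cells, 1 with HADH-S overexpression and 1 control. Trizol was used to isolate RNA before mRNA libraries were made, per the labels' protocols. The authors deposited 1 RPKM value per gene and library, per the file headers. The submitters' processing notes name fastp 0.23.2, SAMtools 1.9, MACS2 1.4.2, ChIPseeker and GRCh38 for the series, with no aligner, counter or strand setting for the RNA (not given in the sources used here). The chromatin libraries were not analysed here.

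RPKM times transcript length was a whole multiple of 1 step per library for 100% of values (tolerance 0.01 reads), which gave reads. Genes listed in 1 table only were given 0 reads in the other. Log2 values use a pseudocount of 1, with a filter at a mean RPKM of at least 1. Ratios have exact conditional (Clopper-Pearson) 95% intervals, and levels have Poisson intervals (scipy 1.17.1, Python 3.11.15). Both reflect counting error alone and hold no variation between replicates. They also treat each read as a separate molecule, which need not hold, since reads carry no molecular identifiers. No p-value was computed. The steps were tested on simulated reads that varied by counting error alone. This checks the calculation and does not cover other variation between libraries.

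The members and lists were chosen with earlier results of these data known. Named genes are all members, HADH, the 3 genes per list with the largest absolute log2 value (5 for target genes), and the 3 genes nearest to TEAD1, WWTR1 and LATS2. Others were named after their values were seen. A gene that this rule names is not reported here. Promoters and coordinates are from RefSeq (GRCh38.p14). Alternatives changed the pseudocount, scaling, filter, fold and length trend.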

Additional observations from a re-analysis of the deposited data

How the results depend on the processing

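With 1 library per condition, no replicate could be left out, and depth limits each gene singly. No paired analysis was possible because each condition has 1 library and the labels give no replicate numbers. TEAD1 stayed between -0.63 (pseudocount 0.1) and -0.48 (pseudocount 5) on the log2 scale over 7 alternatives and WWTR1 between -0.32 and -0.24, and all 49 member values under alternatives lay within their own counting intervals. TEAD1 was past 1.5-fold as reported and not with a pseudocount of 5. The TEAD1 share of the sum of TEAD1, TEAD2 and TEAD4 differed by -10.6 percentage points in RPKM and by -11.8 in reads. Of the list medians, that of the target genes changed sign, from 0.08 as reported to -0.10 where a mean RPKM of 5 was required, which leaves fewer genes. LATS1 and TEAD4, close to 0 as reported, changed sign within -0.03 to 0.04 and -0.03 to 0.00. Counts over all genes followed the treatment of low genes. The 31 genes 2-fold higher became 69 with a pseudocount of 0.1, 8 with 5, 12 where the mean RPKM had to reach 5, and 152 at a fold of 1.5. The 5 genes 2-fold lower became 15 and 8 with pseudocounts of 0.1 and 0.5, 0 with 5, 9 without a filter, 0 where the mean RPKM had to reach 5, and 45 at a fold of 1.5. A larger pseudocount shrinks low genes by construction. Under the rescalings the median of all genes, 0.01 as reported, lay between -0.01 and 0.00.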
